A study of Saccharomyces cerevisiae with 6 samples.

Results

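The mevalonate and early isoprenoid genes of the budding yeast Saccharomyces cerevisiae comprise the 10 genes whose enzymes lead from acetyl-CoA to squalene. They were ERG10, ERG13, HMG1, HMG2, ERG12, ERG8, MVD1, IDI1, ERG20 and ERG9, chosen by their place in the pathway and matched by locus tag to the gene identifiers. All 10 were among the 6032 genes listed. RNA-seq was carried out on 3 strains: one with wild-type ASK10 (WT), one in which ASK10 was deleted (deletion), and one carrying the ASK10 allele M475R (M475R). The product of ASK10 controls Fps1, the plasma membrane channel for glycerol. All strains were grown in synthetic medium without uracil and with 20 g/l glucose, and the labels do not say how the M475R allele was introduced or whether replicates were separate cultures.

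Of the 6 samples in the series, 5 had data columns, namely both libraries of WT, both of M475R, and replicate 2 of the deletion, whose replicate 1 was not analysed here. M475R replicate 1 held 4155203 counts, and the other 4 libraries held 51576 to 117680. The libraries of WT differed by no more than sampling noise (chi-square 1.005 per degree of freedom, p = 0.436), as did those of M475R (1.025, p = 0.168), against 1.37 to 5.75 between strains. For levels and ratios each pair was therefore counted as 1 sample, and no SD is given. The edgeR fit took both libraries of each pair separately, since merging them would leave no residual degrees of freedom, so its SE and p-values set these libraries against each other rather than the strains. The ASK10 counts, a check of the labels, were 5 and 7 in WT, 0 in the deletion, and 567 and 4 in M475R, in replicate order.

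The mevalonate pathway condenses acetyl-CoA units into HMG-CoA, reduces that to mevalonate, and phosphorylates and decarboxylates mevalonate to isopentenyl pyrophosphate. This isoprene unit and its isomer are joined to farnesyl pyrophosphate, which feeds squalene and ergosterol as well as ubiquinone, dolichol, heme A and prenylated proteins. The reduction of HMG-CoA is the main control point of the pathway in yeast, and it is carried out by a pair of isozymes, Hmg1 and Hmg2. Hmg2 is subject to regulated degradation at the endoplasmic reticulum.

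The summed level of the pathway genes did not differ between the 3 strains beyond counting error. ERG10 and ERG12 were called higher in M475R than in WT by edgeR. DESeq2 did not call ERG10 and gave ERG12 no adjusted p. Neither gene was called with a biological CV fixed at 20%, and WT replicate 2 held only 2 counts of ERG12. The summed counts of the 10 genes made up 0.457% and 0.407% of all counts in WT replicates 1 and 2, 0.434% in the deletion library, and 0.452% and 0.466% in M475R replicates 1 and 2. Scaled by library size after TMM, the summed level in M475R was 1.01 times that of WT (exact 95% counting interval 0.938 to 1.09) and 1.01 times that of the deletion (0.925 to 1.10), and the deletion stood at 1.00 times WT (0.892 to 1.125). In the edgeR quasi-likelihood test, 2 of the 9 pathway genes tested were called higher in M475R than in WT, 0 were called lower, and 7 did not pass. Over all 2909 genes tested in that comparison, 8.46% were called higher, 10.1% lower and 18.6% in either direction, so the share of pathway genes called in either direction was close to the background. The median log2 fold change of the 9 genes was 0.01, as was that of all genes tested. HMG2, whose counts were low, did not pass the filter and is given by its counts. Because PCR copies are not independent molecules, the intervals throughout hold for counting error alone.

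The genes differed widely in level, here given as deposited FPKM, which is scaled per length. In the deep library, M475R replicate 1, ERG20 was highest at 960.03 FPKM and HMG2 lowest at 21.6 FPKM, a ratio of 44.5. Between them lay ERG10 at 574 FPKM, ERG13 at 570 FPKM, MVD1 at 421 FPKM, IDI1 at 344 FPKM and ERG9 at 323 FPKM. ERG12 followed at 172 FPKM, ERG8 at 162 FPKM and HMG1 at 128 FPKM. ERG20 ranked 1 and HMG2 ranked 10 in all 5 libraries, and ERG9 ranked 6 in all 5.

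Some neighbours in this order could not be told apart. ERG10 lay above ERG13 in 1 of 5 libraries, and ERG12 above ERG8 in 3 of 5. In the deep library the counting intervals of these pairs, and of IDI1 and ERG9, overlapped when counts were expressed per kilobase and library size. IDI1 nevertheless lay above ERG9 in 5 of 5 libraries. Scaled that way, ERG13 and ERG10 changed places in the deep library (599.1 and 598.1 CPM per kilobase), while the other 8 genes kept their rank.

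**Figure D1:**
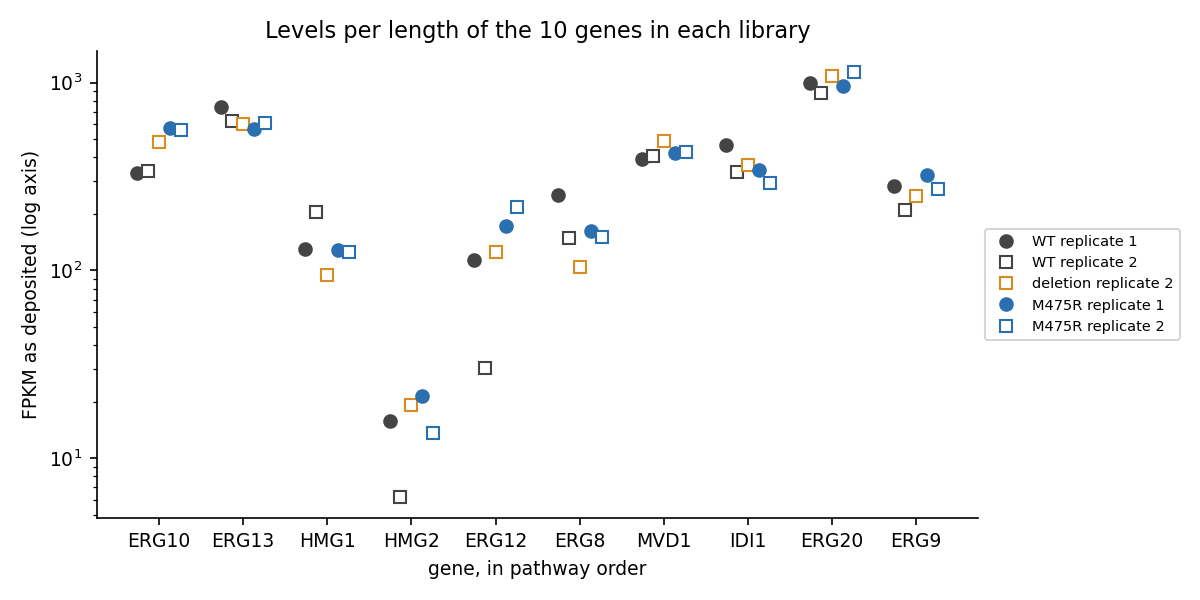
FPKM as deposited (log axis) of each pathway gene in each of the 5 libraries, with replicate 1 as filled circles and replicate 2 as open squares. ERG20 is highest and HMG2 lowest in every library, and for ERG10 both WT points (331 and 338 FPKM) lie below the deletion point (481 FPKM) and both M475R points (574 and 562 FPKM).

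ERG10 encodes acetoacetyl-CoA thiolase, which joins a pair of acetyl-CoA molecules at the entry of the pathway. ERG10 was read 39 and 20 times in WT replicates 1 and 2, 65 times in the deletion, and 2740 and 46 times in replicates 1 and 2 of M475R. This corresponds to 420 and 425 CPM (counts scaled to library size after TMM) in WT, 618 CPM in the deletion, and 716 and 693 CPM in M475R. Both M475R libraries lay above both WT libraries, with the deletion library in between. ERG10 rose 1.70-fold in M475R over WT (exact 95% interval 1.31 to 2.24, log2 fold change 0.76 ± 0.19 SE, edgeR adjusted p = 0.000686). That call rested on the counts of single libraries, although the size barely moved: without WT replicate 1 the ratio was 1.68 (edgeR adjusted p = 0.0996), and without M475R replicate 1 it was 1.64 (adjusted p = 0.0942). The DESeq2 Wald test did not call ERG10 (adjusted p = 0.131), nor did edgeR with a biological CV fixed at 20% (adjusted p = 0.31).

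ERG13 encodes HMG-CoA synthase, which adds the next acetyl-CoA. Its level was 1173 and 978 CPM in WT replicates 1 and 2, 961 CPM in the deletion library, and 884 and 933 CPM in M475R replicates 1 and 2. Both M475R libraries were thus slightly below the other 3, and the gap did not pass the test: the M475R to WT ratio was 0.799 (0.680 to 0.945, edgeR adjusted p = 0.111).

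HMG1 and HMG2 encode the HMG-CoA reductases. HMG1 was read 42 and 33 times in WT replicates 1 and 2, 35 times in the deletion, and 1667 and 28 times in M475R replicates 1 and 2. That is 452 and 701 CPM in WT, 333 CPM in the deletion, and 436 and 422 CPM in M475R, so WT replicate 2 was high and the deletion library low. The deletion to WT ratio of 0.621 (0.404 to 0.940) did not pass over all genes (edgeR adjusted p = 0.415), nor did the M475R to WT ratio of 0.812 (0.645 to 1.04, adjusted p = 0.275). Without WT replicate 1 the latter ratio was 0.621, outside that interval, and without WT replicate 2 it was 0.963.

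HMG2 was read 5 times and 1 time in WT replicates 1 and 2, 7 times in the deletion, and 278 and 3 times in M475R replicates 1 and 2. WT replicate 2, with 1 count, lay below a floor of 3 counts, and M475R replicate 2 lay at it. The M475R to WT ratio of HMG2 was 1.68 (0.764 to 4.63), a difference that was not detectable at this depth. It was 3.40 without WT replicate 1 and 1.05 without M475R replicate 1. In a fit without the filter, HMG2 gave a log2 fold change of 0.72 ± 0.59 SE (edgeR adjusted p = 0.593).

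The share of HMG1 in the summed counts of both reductase genes does not depend on scaling between libraries. It was 89.4% (Clopper-Pearson 95% interval 76.9 to 96.5) and 97.1% (84.7 to 99.9) in WT replicates 1 and 2. The share was 83.3% (68.6 to 93.0) in the deletion library, and 85.7% (84.1 to 87.2) and 90.3% (74.3 to 97.96) in M475R replicates 1 and 2. HMG1 thus took most of the reductase counts in every library, and the intervals of the pooled strains overlapped (WT 84.6 to 97.2%, deletion 68.6 to 93.0%, M475R 84.2 to 87.3%). Both genes come from a duplicated ancestor, and how reads common to both were counted is not given in the sources used here. All deposited counts of the 10 genes were whole in all 5 libraries.

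ERG12, ERG8 and MVD1 encode the enzymes that turn mevalonate into isopentenyl pyrophosphate. ERG12, the mevalonate kinase gene, was read 15 times and 2 times in WT replicates 1 and 2, 19 times in the deletion, and 918 and 20 times in M475R replicates 1 and 2. The levels were 162 and 42.5 CPM in WT, 181 CPM in the deletion, and 240 and 301 CPM in M475R. WT replicate 2 stood apart on 2 counts, while WT replicate 1 was close to the deletion library. ERG12 rose 1.98-fold in M475R over WT (1.23 to 3.42, log2 fold change 0.99 ± 0.31 SE, edgeR adjusted p = 0.0124). The DESeq2 Wald test gave ERG12 no adjusted p (unadjusted p = 0.0534). Without WT replicate 2 the ratio was 1.49 and the call was lost (adjusted p = 0.329), and without WT replicate 1 the ratio was 5.67. The call was also lost without M475R replicate 1 (ratio 2.48, adjusted p = 0.0609) and with a biological CV fixed at 20% (adjusted p = 0.188).

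ERG8, the phosphomevalonate kinase gene, was read 34 and 10 times in WT replicates 1 and 2, 16 times in the deletion, and 881 and 14 times in M475R replicates 1 and 2. Its level was 366 and 213 CPM in WT, 152 CPM in the deletion, and 230 and 211 CPM in M475R. The deletion library was lowest and WT replicate 1 highest, and the WT and M475R libraries overlapped. The deletion to WT ratio of 0.484 (0.255 to 0.875) was the lowest among the pathway genes, and it did not pass over all genes (log2 fold change -1.05 ± 0.40 SE, edgeR adjusted p = 0.323). The M475R to WT ratio was 0.731 (0.540 to 1.01, adjusted p = 0.186), and without WT replicate 1 it turned to 1.08.

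MVD1, the mevalonate pyrophosphate decarboxylase gene, varied little, with 495 and 510 CPM in WT replicates 1 and 2, 628 CPM in the deletion library, and 522 and 527 CPM in M475R replicates 1 and 2. The M475R to WT ratio of MVD1 was 1.04 (0.823 to 1.345, edgeR adjusted p = 0.861).

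IDI1, ERG20 and ERG9 act on isopentenyl pyrophosphate and its products. IDI1, the gene of the isomerase that makes dimethylallyl pyrophosphate, stood at 420 and 298 CPM in WT replicates 1 and 2, 333 CPM in the deletion library, and 305 and 256 CPM in M475R replicates 1 and 2. The WT and M475R libraries of IDI1 overlapped, and the M475R to WT ratio was 0.803 (0.610 to 1.08, edgeR adjusted p = 0.342). Without WT replicate 1 its log2 fold change turned from -0.32 to 0.05.

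ERG20, the farnesyl pyrophosphate synthase gene, was the most abundant member per length. It stood at 1109 and 978 CPM in WT replicates 1 and 2, 1227 CPM in the deletion library, and 1053 and 1234 CPM in M475R replicates 1 and 2. The WT and M475R libraries overlapped, and the M475R to WT ratio of ERG20 was 0.992 (0.842 to 1.18, edgeR adjusted p = 0.977). ERG9, the squalene synthase gene at the branch to sterols, stood at 398 and 298 CPM in WT, 362 CPM in the deletion and 451 and 376 CPM in M475R. Its M475R to WT ratio was 1.23 (0.934 to 1.66, adjusted p = 0.356), with overlapping libraries.

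By the overlap of libraries, 5 of the 9 tested pathway genes had both M475R libraries on one side of both WT libraries, 3 above (ERG10, ERG12 and MVD1) and 2 below (ERG13 and HMG1). The same held for 54.1% of all genes tested, so the count among pathway genes was near the background.

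**Figure D2:**
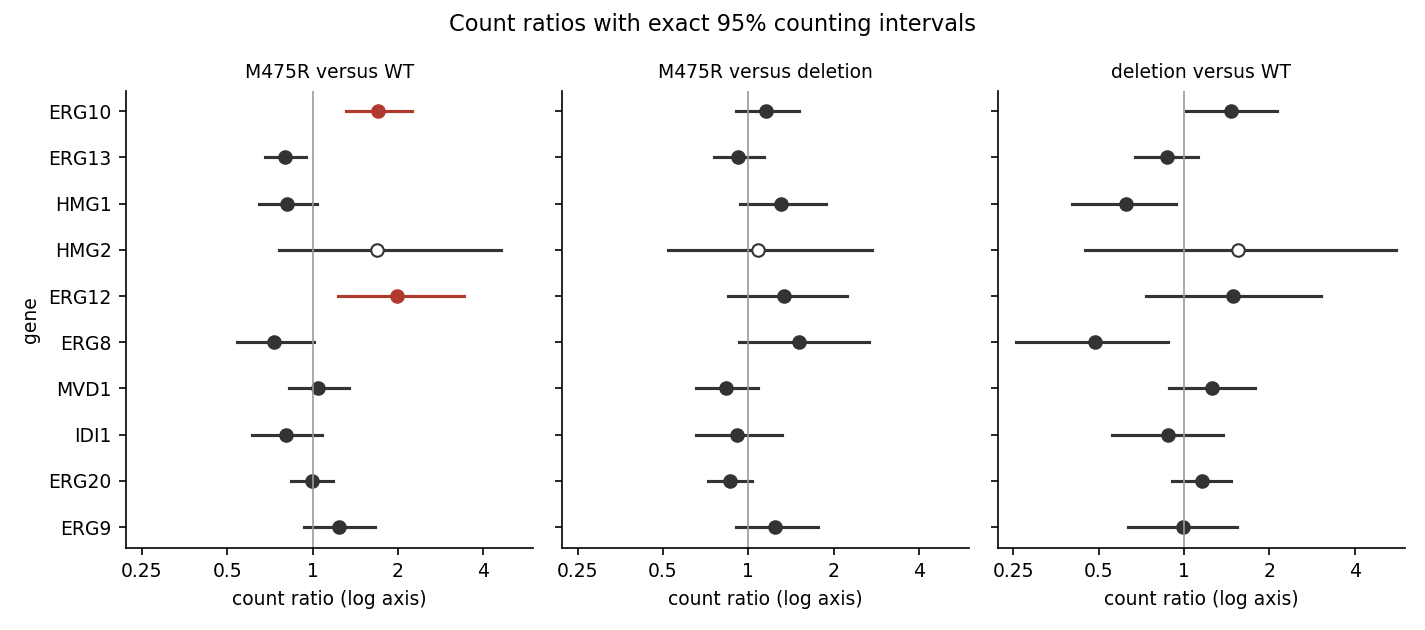
Ratio of pooled, TMM-scaled counts (log axis) for each pathway gene in each comparison, with exact 95% counting intervals as lines; red marks genes called by edgeR and open circles mark HMG2, which was not tested. In M475R versus WT, ERG10 (1.70) and ERG12 (1.98) are called, and no gene is called in the other comparisons.

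M475R was also compared with the strain lacking ASK10, of which only 1 library was at hand. None of the 9 tested pathway genes was called by edgeR, where 4.09% of all genes tested were called higher, 6.19% lower and 10.3% in either direction. DESeq2 also called 0, but gave ERG12 no adjusted p, and 0 had an unadjusted edgeR p under 0.05. The shares over all genes hold for the edgeR calls alone. The log2 fold changes ran from -0.27 for MVD1 to 0.59 for ERG8, with a median of 0.21 against 0.01 over all genes tested. ERG10 stood at 1.16 times the deletion (0.905 to 1.504, edgeR adjusted p = 0.606) and ERG12 at 1.33 times (0.849 to 2.22, adjusted p = 0.508). The ERG8 ratio of 1.51 (0.925 to 2.65, adjusted p = 0.32) and the HMG1 ratio of 1.31 (0.936 to 1.88, adjusted p = 0.388) were measured against a deletion library that was the lowest of the 5 for both genes. These intervals do not show that the levels were equal: for ERG8 they allow up to a 2.65-fold difference.

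In the comparison of the deletion with WT, edgeR called 0 of the 9 pathway genes, against 0.688% of all genes (0.481% higher and 0.206% lower). DESeq2 also called 0 of the 9. ERG8, HMG1 and ERG10 had an unadjusted edgeR p under 0.05. The share of all genes at that threshold is not given here, so no background stands beside these 3. ERG10 stood at 1.47 times WT (1.015 to 2.12, edgeR adjusted p = 0.591). MVD1 stood at 1.25 times (0.883 to 1.78, adjusted p = 0.781) and ERG12 at 1.49 times (0.732 to 3.05, adjusted p = 0.828), and without WT replicate 1 the ERG12 ratio was 4.25. The comparisons of M475R and of the deletion with WT share the WT libraries, so the position of ERG10 above WT in both cannot be told apart from a low value in WT.

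ERG13 and HMG2 lie 7 and 15 genes from the nearer end of chromosomes XIII and XII in the reference gene order. The nearest tested neighbours of ERG13 had a median log2 fold change of 0.41 in the deletion over WT (8 genes, 0 called), against -0.20 for ERG13 itself. Those of HMG2 had a median of -0.02 (7 genes, 0 called). For the other 8 pathway genes, 0 of the 10 nearest tested neighbours were called in either direction, and the highest median was 0.42, at ERG20 on chromosome X.

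Expressed as shares of the summed counts of the 10 genes, which need no scaling between libraries, ERG10 took 8.69% in WT (Clopper-Pearson 95% interval 6.68 to 11.1), 12.7% in the deletion (9.96 to 15.9) and 14.6% in M475R (14.1 to 15.1). ERG12 took 2.50% in WT (1.47 to 3.98), 3.72% in the deletion (2.25 to 5.75) and 4.91% in M475R (4.60 to 5.22). For both genes the interval of M475R lay wholly above that of pooled WT and overlapped that of the deletion. For ERG12 this rested on WT replicate 2, where the share was 0.952% (0.116 to 3.40), while the 3.20% of WT replicate 1 (1.80 to 5.22) had an interval that overlapped that of M475R. The ERG10 share was 8.32% (5.98 to 11.2) and 9.52% (5.92 to 14.3) in WT replicates 1 and 2. It was 13.9% (10.3 to 18.05) in M475R replicate 2. The interval of WT replicate 2 overlapped that of pooled M475R, and that of M475R replicate 2 overlapped both WT libraries. The share of ERG13 was 22.8% in WT (19.7 to 26.2), 19.8% in the deletion (16.4 to 23.5) and 18.0% in M475R (17.5 to 18.6). The pooled WT interval thus lay above that of pooled M475R. The interval of WT replicate 2 (16.5 to 28.1) covered the M475R share, and that of M475R replicate 2 (14.6 to 23.3) overlapped both WT libraries. The share of ERG20 was 21.9% in WT (18.9 to 25.3), 25.2% in the deletion (21.5 to 29.3) and 21.5% in M475R (20.9 to 22.1).

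**Figure D3:**
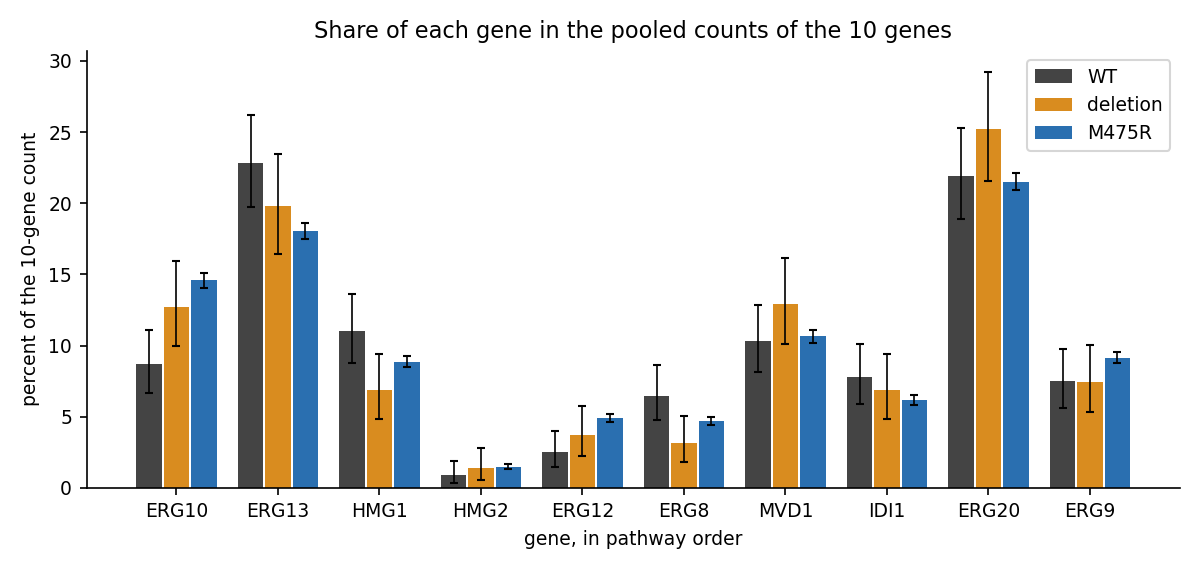
Percent of the pooled counts of the 10 genes taken by each gene in each strain, as bars from 0 with Clopper-Pearson 95% intervals. ERG10 takes 8.69% in WT and 14.6% in M475R, and ERG12 2.50% (3.20% in WT replicate 1 and 0.952% in replicate 2) and 4.91%, while ERG13 and ERG20 take the largest shares in every strain.

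The pathway starts from acetyl-CoA made in the cytosol. Of 10 genes on the acetyl-CoA supply list, 9 were measured and 6 tested. Of the 6, 2 were called higher in M475R than in WT, where 8.46% of all genes tested were. ALD4, 1 of these 2, was tested only through the deletion and M475R libraries, so the count does not stand for the list. The 6 genes split into 3 above WT and 3 below. ALD6, the main cytosolic acetaldehyde dehydrogenase gene, was read 133 and 60 times in WT replicates 1 and 2, 189 times in the deletion, and 8902 and 147 times in M475R replicates 1 and 2. ALD6 rose 1.69-fold over WT (1.46 to 1.95, edgeR adjusted p = 5.89e-09) and 1.29-fold over the deletion (1.12 to 1.501, adjusted p = 0.0389), the latter call being lost without either M475R replicate 1 (adjusted p = 0.446) or replicate 2 (adjusted p = 0.0694). ALD4, a mitochondrial acetaldehyde dehydrogenase gene, rose 2.35-fold over WT on 11 WT counts (1.31 to 4.73, adjusted p = 0.00888). Neither WT library reached the limit of the filter for this gene, while the deletion library and both M475R libraries did. The p-value of ALD4 is therefore no independent evidence of a difference from WT. Its adjusted p was 0.369 without WT replicate 1 and 0.661 without M475R replicate 1. Of the genes not called, ALD5, ACS2 and ACC1 were chosen for naming after their values were seen. ALD5, another mitochondrial acetaldehyde dehydrogenase gene, was the lowest of the list, at 0.631 times WT (0.455 to 0.900, adjusted p = 0.0519) and 0.667 times the deletion (0.454 to 1.02, adjusted p = 0.248). Its level was 269 and 276 CPM in WT replicates 1 and 2, 257 CPM in the deletion, and 171 and 166 CPM in M475R replicates 1 and 2, so both M475R libraries lay below the other 3. ACS2, the acetyl-CoA synthetase gene of growth on glucose, stood at 0.961 times WT (0.825 to 1.125, adjusted p = 0.784). ACC1, whose product draws acetyl-CoA into fatty acids, stood at 0.894 times WT (0.807 to 0.993, adjusted p = 0.217).

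Among 261 genes with at least 100 pooled WT counts, ALD6 was the gene outside the pathway whose pair of log2 fold changes against WT lay nearest to that of ERG10. ERG10 itself had 59 pooled WT counts. ALD6 stood at 0.75 in M475R and 0.39 in the deletion, and ERG10 at 0.76 and 0.55. YCR013C (0.98 and 0.50) and the Hsp90 gene HSP82 (0.95 and 0.42) came next, the last having a near-identical copy with which reads may be shared. The distances of the 3 genes from ERG10 (0.168, 0.225 and 0.234) were below the SE of ERG10 in the deletion over WT (0.27). Their order is thus not resolved. Likeness here rests on 3 strains and shared WT libraries, and shared regulation was not tested.

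Downstream of squalene, 1 of 15 tested late ergosterol genes was called higher in M475R than in WT and 0 lower, a share near the 8.46% called higher among all genes tested. This was ERG4, the gene of the last reductase of ergosterol synthesis, which rose 2.42-fold (1.62 to 3.79, edgeR adjusted p = 2.34e-05), with adjusted p = 0.326 without WT replicate 1 and 0.363 without M475R replicate 1. Against the deletion 3 of 15 were called higher in M475R and 0 lower, where 4.09% of all genes tested were called higher and 6.19% lower. They were ERG4 at 1.99-fold (1.31 to 3.18, adjusted p = 0.00773), the C-5 desaturase gene ERG3 at 1.68-fold (1.27 to 2.26, adjusted p = 0.00535) and the squalene epoxidase gene ERG1 at 1.46-fold (1.15 to 1.87, adjusted p = 0.0332). All 3 calls were lost without M475R replicate 1 (adjusted p = 0.685, 0.204 and 0.238). In deletion versus WT, 0 of 15 were called by edgeR, against 0.688% of all genes tested. An unadjusted p under 0.05 was found for 2, a threshold for which no share over all genes is given. The median log2 fold change of these 15 genes was 0.22 in M475R over WT, 0.19 in M475R over the deletion and -0.10 in the deletion over WT, where the pathway genes gave 0.01, 0.21 and -0.01. All genes tested gave 0.01, 0.01 and -0.002. ERG24 reached the limit of the filter in no WT library, and ERG28 did not reach it in the deletion library. The medians thus do not stand for all 17 genes listed.

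Of 16 genes for other uses of farnesyl or isopentenyl pyrophosphate, 6 were tested and 1 was called higher in M475R than in WT, against 8.46% of all genes tested. COX10, which encodes the farnesyl transferase of heme A synthesis, was read 6 times and 1 time in WT replicates 1 and 2, 9 times in the deletion, and 570 and 8 times in M475R replicates 1 and 2. COX10 stood at 2.97 times WT (1.43 to 7.42, edgeR adjusted p = 0.00471), which did not pass without WT replicate 1 (adjusted p = 0.0791) or replicate 2 (adjusted p = 0.117). COX10 reached the limit of the filter (97.5 CPM by total counts) in both M475R libraries and in no other, so it was tested only because it was high there, and its p-value is no independent evidence of a difference. For the same reason the 6 tested genes do not stand for all 16.

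Of 10 regulators of sterol genes, 6 were tested and 4 did not pass the filter. Of the 6, 0 were called in any comparison by edgeR. Over all genes tested, edgeR called 18.6% in M475R versus WT, 10.3% in M475R versus deletion and 0.688% in deletion versus WT. DESeq2 called 132, 67 and 4 of 2909 genes in these comparisons. It called 0 of the 6 and gave some of them no adjusted p. With 6 genes, a count of 0 does not set the list apart. ROX1 passed the filter in the deletion only, so the 6 do not stand for all 10. In deletion versus WT, 1 had an unadjusted edgeR p under 0.05, a threshold for which no share over all genes is given. This was MOT3, with 13 counts in the deletion and 6 in WT. Neither WT library reached the limit of the filter for MOT3, so its p-value is no independent evidence of a difference from WT. TUP1 and CYC8, which encode a general corepressor pair, stood at 1.19 (0.915 to 1.57, edgeR adjusted p = 0.442) and 1.00 times WT (0.728 to 1.42, adjusted p = 0.997) in M475R. Among those not tested, UPC2 was read 4 times in WT, 1 time in the deletion and 129 times in M475R, and ECM22 8 times, 1 time and 215 times. Both encode activators that bind sterol response elements. Scaled by library size, the M475R to WT ratio was 1.16 for UPC2 (0.442 to 4.32) and 0.966 for ECM22 (0.4815 to 2.27). These intervals are too wide for a comparison. HAP1, a heme-dependent activator gene, gave a M475R to WT ratio of 0.782 (0.535 to 1.19, edgeR adjusted p = 0.467).

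Of 14 genes for the machinery that controls Hmg2 protein, 10 were tested. Of the 10, 1 was called, higher in M475R than in WT, a share near the 8.46% of all genes tested. This was CDC48, the AAA ATPase gene, at 1.37-fold (1.16 to 1.63, edgeR adjusted p = 0.0101), with adjusted p = 0.552 without WT replicate 1 and 0.453 without M475R replicate 1. NSG1 and NSG2, which encode Insig-like proteins that stabilise Hmg2, stood at 1.17 (0.627 to 2.46, adjusted p = 0.843) and 1.16 times WT (0.726 to 1.97, adjusted p = 0.737). Of 20 genes listed for sterol esters and transport, 18 were measured and 12 tested. Of the 12, 1 was called higher in M475R than in WT, again near the 8.46% of all genes tested. In both lists some genes passed the filter in 1 strain only, so the tested genes do not stand for all those listed. These include UBC7, ARE1 and OSH6 in M475R, ATF2 in WT, and NSG1, HRD1 and CUE1 in the deletion. YEH1, a steryl ester hydrolase gene, rose 2.64-fold on 8 WT counts (1.33 to 6.15, adjusted p = 0.00969), and the call was lost without WT replicate 1 (adjusted p = 0.868). With a biological CV fixed at 20%, none of the called genes of these lists passed, and the smallest adjusted p was 0.128, for YEH1.

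**Figure D4:**
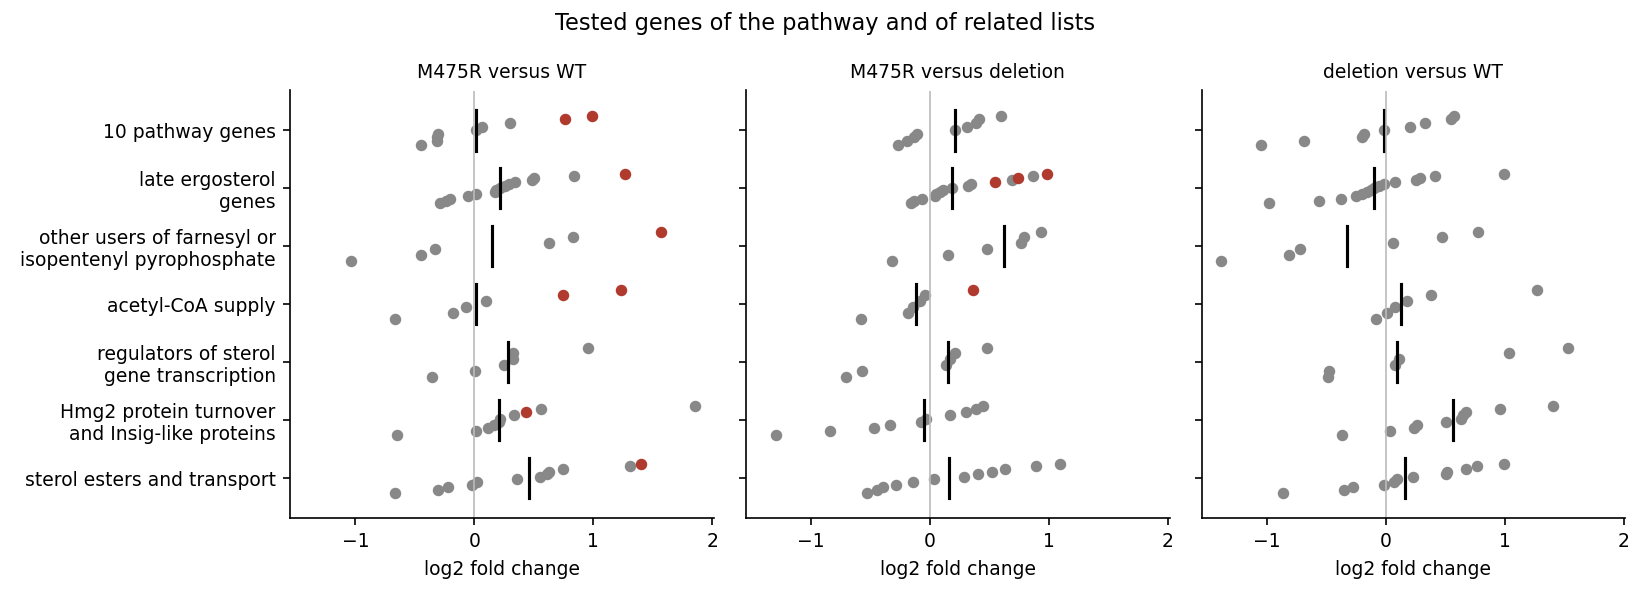
Log2 fold change of each tested gene of the pathway and of 6 related lists in the 3 comparisons; red marks genes called by edgeR, grey the others, and the black bar is the median of the list. The pathway median is 0.01 in M475R versus WT, where ERG10 (0.76) and ERG12 (0.99) are the called members. Some genes of the related lists passed the filter in 1 strain only. These include COX10, UBC7, ARE1 and OSH6 in M475R, COQ2, BET4, DPP1 and ATF2 in WT, and ROX1, NSG1, HRD1 and CUE1 in the deletion. The medians of the related lists thus do not stand for all genes listed.

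In the authors' deposited tables of single library pairs, the log2 ratio of ERG10 over WT lay close together, at 0.79 and 0.77 for M475R replicate 1 over WT replicates 1 and 2 and 0.74 for M475R replicate 2 over WT replicate 2. That of ERG12 in the same authors' deposited tables was 0.59, 2.51 and 2.86 for the same pairs. The value of ERG12 thus moved with the WT library used and that of ERG10 barely did. The authors' deposited tables include 6 filtered lists of changed genes, and 0 of the 10 pathway genes are in them. These lists hold only 2 to 88 of the 6032 genes listed. An absence of 10 genes from lists this short is no result about the pathway.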

How the data were processed

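Messenger RNA was fragmented, copied to cDNA and amplified by PCR, per the labels' protocols, and BWA and Bowtie are named without versions in the submitters' processing notes. The build, annotation version and counting tool are not given in the sources used here, but the gene identifiers carry the strain suffix CEN.PK113-7D. The deposited tables hold expected counts, FPKM with 0 set to 0.001, and log2 ratios made by the authors. There were 7 full tables and 6 filtered lists, whose 22 other per-sample columns were not used. Values of a library did not differ between full tables (0 of 100864 compared), and 436 values not listed for a library were taken as 0.

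Expected counts were rounded and tested with edgeR 4.0.16 (R 4.3.3), quasi-likelihood without robust estimation, TMM, filterByExpr by strain, 1 fit of 5 libraries and Benjamini-Hochberg adjustment over 2909 genes, called under 0.05. The common dispersion was 0.00101 (CV 3.18%) with 2 residual degrees of freedom and infinite prior degrees of freedom, so SE and p hold hardly more than counting error. The spread of the lone deletion library was taken from the other strains. Count ratios pool counts over scaled library sizes, with conditional binomial intervals. M475R values mostly reflect replicate 1, which was 35.3 to 80.6 times as deep as the others. A count of 3, the floor, was 0.784 CPM there and 28.5 to 63.8 CPM elsewhere. DESeq2 1.42.0, an edgeR likelihood-ratio test with the CV fixed at 20% and other alternatives are given at the end.

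Locus tags paired 5515 of 6032 identifiers with a gene table of assembly R64, used for names and gene order only. That assembly is of another strain than the identifiers name, and gene order was not checked in the strains sequenced. The planned search of promoters for motifs was not run, since the authors' build is not given. Members and lists were chosen with earlier results of these data known. Genes outside the pathway were named where called in any comparison, at most 4 per list and comparison. Regulators, NSG1 and NSG2 could be named whatever their values, and not all were. ALD5, ACS2 and ACC1 were named after their values were seen.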

Additional observations from a re-analysis of the deposited data

How the results depend on the processing

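The 2 calls among the pathway genes depended on the counts of single libraries and on the assumed spread, while ERG10 and ERG12 lay above WT in M475R under every alternative that gave a value. ERG10 in M475R versus WT gave a log2 fold change of 0.73 with the DESeq2 Wald test (adjusted p = 0.131) and 0.74 with a biological CV fixed at 20% (adjusted p = 0.31), and 0.76 to 0.78 where 1 library of these strains was left out, or 0.82 without the deletion. ERG12 gave 1.14 with the fixed CV (adjusted p = 0.188), 1.21 with DESeq2 (unadjusted p = 0.0534, no adjusted p), and 0.57 to 2.52 where 1 library was left out. The number of pathway genes called was 0 with DESeq2, 0 with the fixed CV, and 0 to 2 where 1 library was left out; the cause was not tested. No other pathway gene was called under any alternative run. Over all pathway genes and comparisons, 297 of 304 fold changes with an adjusted p kept their side of the threshold and 7 lost it, ERG12 with DESeq2 not counted, and 4 of 140 count ratios left their interval, all without WT replicate 1.

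The number of genes called over the whole table moved from 540 to 132 with DESeq2 and 84 with the fixed CV in M475R versus WT, and to 176 to 518 where 1 library was left out. In M475R versus deletion it moved from 299 to 67, 50 and 105 to 313. In deletion versus WT it moved from 20 to 4, 3 and 9 to 17. Scaling by total counts changed the split of M475R versus deletion from 119 higher and 180 lower to 156 and 145. With the replicate number as a block, 486, 156 and 11 genes were called, ERG10 (adjusted p = 0.00129) and ERG12 (0.0251) stayed called, and replicate numbers showed no pairing (r = -0.0269 between the replicate differences of WT and M475R over 2909 genes). The calls of ERG1, ERG3, ERG4 and ALD6 in M475R versus deletion were lost in that block fit. At this depth, HMG2, UPC2 and ECM22 could not be compared.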
